A study of Mus musculus with 2 samples.

Results

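Interferon-responding cells of mouse PDGFB-driven gliomas were defined here as cells with unique molecular identifiers (UMIs, counts of single captured transcripts) for 2 or more of Isg15, Ifit3, Ifit2, Irf7 and Rtp4, called the rule genes below. They numbered 450 of 6744 kept glioma cells and of 7493 barcodes in all, 188 in pool 1 and 262 in pool 2. A kept cell had at least 500 genes, at most 15% mitochondrial UMIs and UMIs of fewer than 2 of the microglial genes C1qa, C1qb, C1qc and Csf1r. The members were compared with cells of the same pool that had UMIs of 0 of the 5 rule genes, called 0-of-5 cells, at similar depth.

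Droplet single-cell RNA sequencing (10x Genomics 3ʹ chemistry, version 3.1) had been run on sorted GFP-positive tumour cells. The tumours were raised in C57BL/6 mice by transferring PDGFB, a ligand of the receptor Pdgfra, into the telencephalic ventricles of embryos, and were taken about 40 days after birth. All samples carry PDGFB and belong to 1 group of 2 libraries, pool 1 and pool 2, with no untreated, uninfected or tumour-free control. Each pool mixes the cells of 2 tumours, 4000 of which were loaded, and a cell cannot be assigned to its tumour. Pool 1 held 33.9 M UMIs in 3843 barcodes and pool 2 held 40.9 M UMIs in 3650 barcodes, and 4 barcode sequences occurred in both. The members were chosen by the UMIs of the 5 rule genes, so the levels of those genes are a description. The comparison asks which other genes differed in cells that express interferon-stimulated genes. Its p-values rest on how differences varied between the 2 pools and do not extend to other tumours. Each gene has 1 residual degree of freedom of its own, against 5.68 drawn from all genes together. The spread used for a gene is thus mostly that of other genes.

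Interferons are secreted signals that bind receptors on the cell surface and activate the kinases Jak1 and Tyk2. These phosphorylate Stat2, which together with Irf9 is part of the factor ISGF3. ISGF3 binds interferon-stimulated response elements (ISREs) in promoters and switches on genes that block viral replication, sense foreign nucleic acid and raise antigen presentation. Isg15 is a ubiquitin-like protein that is conjugated to other proteins. Ifit2 and Ifit3 are antiviral proteins with tetratricopeptide repeats, Irf7 is a transcription factor that amplifies interferon production, and Rtp4 is an interferon-induced receptor transporter protein.

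The following promoter stretches are shown because they carry the letters of the ISRE core upstream of 2 rule genes and of 6 genes that were higher in the responding cells. The sequences are those of RefSeq on GRCm38.p6, 5′ to 3′ on the strand of the gene, and capitals mark every base of a match to GAAANNGAAA on either strand, written TTTCNNTTTC where the match is on the opposite strand. Overlapping matches were all kept.
Isg15: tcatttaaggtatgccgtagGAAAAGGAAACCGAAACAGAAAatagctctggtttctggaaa
Ifit3: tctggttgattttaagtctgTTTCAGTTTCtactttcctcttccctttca
Ifit1: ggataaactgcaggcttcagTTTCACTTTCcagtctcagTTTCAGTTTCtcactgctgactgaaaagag
Bst2: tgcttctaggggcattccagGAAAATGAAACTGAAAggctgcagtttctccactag
Gbp3: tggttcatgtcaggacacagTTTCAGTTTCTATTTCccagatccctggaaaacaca
Igtp: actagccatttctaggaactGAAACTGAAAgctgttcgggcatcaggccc
Ddx60: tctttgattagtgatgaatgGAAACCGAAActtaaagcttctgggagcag
B2m: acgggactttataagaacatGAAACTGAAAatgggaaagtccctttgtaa
The Isg15 stretch lies on the minus strand at chr4:156200855-156200916 and holds 3 overlapping matches, from 78 to 57 bases before the start of the gene. The Ifit3 stretch (chr19:34583387-34583436, plus strand) is 1 of 2 such stretches upstream of that gene. Ifit1 (chr19:34640765-34640833, plus) has 2 matches between 104 and 76 bases before its start. The other stretches lie at chr8:71537567-71537622 (Bst2, minus), chr3:142559979-142560034 (Gbp3, plus), chr11:58199502-58199551 (Igtp, plus), chr8:61928014-61928063 (Ddx60, plus) and chr2:122147528-122147577 (B2m, plus).

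Searched over the 250 bases before each start, GAAANNGAAA was present in 978 of 32851 RefSeq windows (2.98%). Among the genes tested below, 267 of the 9338 with a window carried it (2.86%). Among the genes higher in responding cells, 14 of the 27 with a window did (51.9%). Of the rule genes, Isg15 and Ifit3 had a match, and Ifit2 and Irf7 had none in this window. The antiviral effector list described below had it in 15 of 39 genes (38.5%), the MHC class I list in 3 of 16 (18.8%), the hypoxia list in 1 of 19 (5.26%) and the G2/M list in 2 of 30 (6.67%). A match describes letters in a window and not binding.

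The 5 rule genes were detected in very unequal shares of the kept cells. Ifit2 had a UMI in 31.9% of cells of pool 1 and 37.5% of cells of pool 2. Rtp4 followed with 6.52% and 8.34%, Ifit3 with 2.56% and 5.09%, Irf7 with 1.55% and 2.24%, and Isg15 with 1.44% and 2.64%. The microglial cells kept out of the glioma cells, 23 in pool 1 and 17 in pool 2 with median depths of 4698 and 6271 UMIs, had an Ifit2 UMI in 21.7% and 17.6%. Microglia can express these genes themselves, so no cell type in these libraries is known to lack them and the level of free RNA was not measured by this route.

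Because Ifit2 was so common, many members passed the rule with it and 1 other gene. The pair Ifit2 and Rtp4, with no other rule gene, made up 88 of the 188 members in pool 1 (46.8%, exact Clopper-Pearson 95% interval 39.5 to 54.2%) and 86 of the 262 in pool 2 (32.8%, 27.2 to 38.9%). Isg15, Ifit3 or Irf7 was detected in 53.2% and 67.2% of members. All 5 rule genes were detected in 5 cells of pool 1 and 18 cells of pool 2. Ifit2 was found in 81.4% and 80.9% of cells with 3 or more rule genes and in 86.9% and 87.6% of cells with exactly 1. Isg15 was found in 1.10% and 1.05% of cells with exactly 1, 8.28% and 11.3% with exactly 2, and 60.5% and 58.5% with 3 or more. The rule itself shapes both patterns, since a common gene such as Ifit2 is the single rule gene of most cells with exactly 1. They cannot show whether either gene follows the interferon response. Other interferon-related genes, which the rule did not use, are described below. Their lists were chosen with earlier results of these data known, so they are not an independent check of the label of interferon response.

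Responding cells made up 5.40% of kept glioma cells in pool 1 (4.67 to 6.20%) and 8.03% in pool 2 (7.12 to 9.02%), a mean of 6.72% ± 1.86 (SD, n = 2 pools). The name follows the rule, and these shares include the members with Ifit2 and Rtp4 alone. Among the levels of such cells given below, Bst2 lay near that of 0-of-5 cells and Irf9 above it. Whether they respond to interferon was not tested. Cells with 3 or more rule genes were 1.23% (0.895 to 1.66%) and 2.88% (2.34 to 3.52%). Intervals here and below are 95% and cover counting error only. The share moved with depth: over the quartiles of UMIs per cell, from shallow to deep, it was 0.115%, 1.61%, 5.86% and 14.0% in pool 1 and 1.11%, 3.92%, 7.62% and 19.5% in pool 2. Members had medians of 15851 and 19147 UMIs, against 4678.5 and 7485 in 0-of-5 cells. With every cell thinned to 2000 UMIs, which left out 382 and 399 shallower cells, the share was 0.806% (0.522 to 1.19%) and 1.36% (0.971 to 1.86%).

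**Figure D1:**
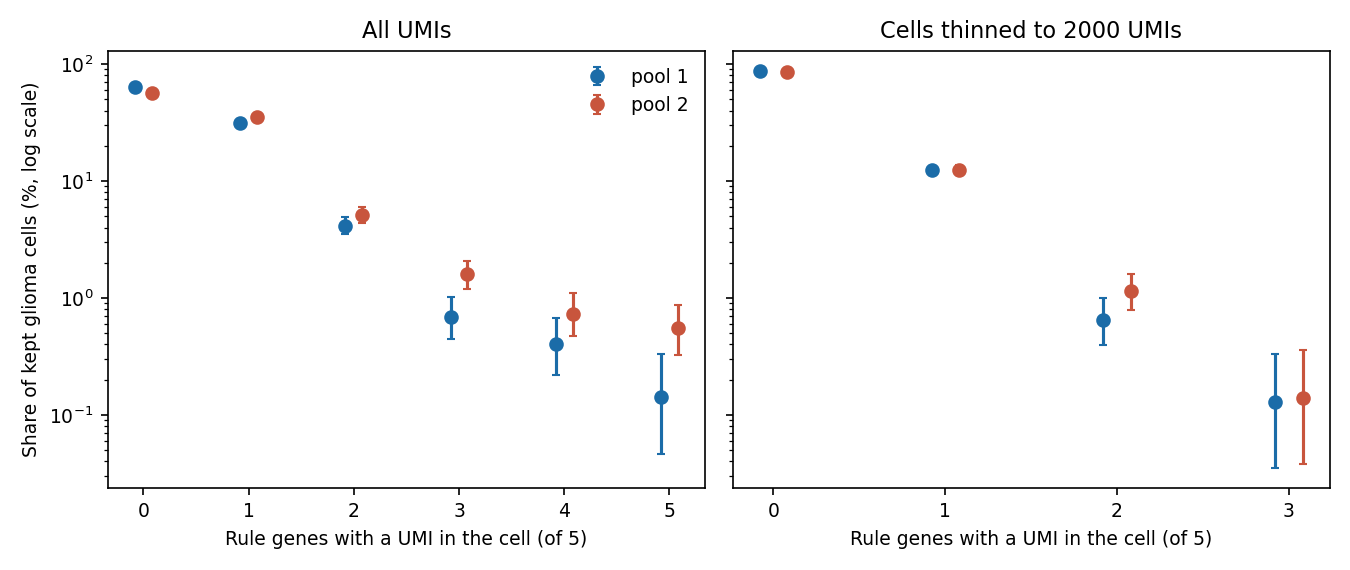
Share of kept glioma cells (%, log scale) by the number of rule genes with a UMI, in pool 1 and pool 2, with all UMIs (left) and after thinning each cell to 2000 UMIs (right). Points are shares and bars exact 95% intervals. Shares fell from 63.4% and 57.0% of cells with 0 rule genes to 0.144% and 0.552% with all 5, and pool 2 lay above pool 1 at 3, 4 and 5 rule genes before thinning.

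To compare cells of like depth, each member was set against 1 unused 0-of-5 cell of its pool within 10% of its UMIs, which retained 182 and 237 members. The median depth was then 15579.5 UMIs in members and 15585.5 in 0-of-5 cells of pool 1, and 18004 and 18005 in pool 2. UMIs were summed by pool and state and tested for 11932 genes with edgeR's quasi-likelihood method, pool being a blocking factor. In the responding cells 32 genes were higher (0.268% of genes tested) and 3 were lower (0.0251%) at a Benjamini-Hochberg adjusted p below 0.05. At an unadjusted p below 0.05, 344 genes were higher and 217 lower. Of the 32 higher genes, 29 were on the lists of interferon-related genes given below. Those lists were chosen with earlier results of these data known, and the share of all tested genes on them was not counted. Without the pool as a block 5 genes were higher and 1 lower. The rule genes themselves took no part in the calls, since the rule sets their difference. Their levels in the matched members were 69.2 and 131 CPM for Ifit3, 92.9 and 90.7 CPM for Ifit2, 68.9 and 70.1 CPM for Rtp4, 53.7 and 60.2 CPM for Isg15, and 20.9 and 28.1 CPM for Irf7, where CPM are counts scaled to 1 M UMIs of the summed cells. The 0-of-5 cells have 0 UMIs of each by definition. Ifit3 was the rule gene that differed most between the pools.

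Ifit1, an antiviral protein of the same family as Ifit2 and Ifit3 and a separate gene from the rule genes, was almost absent from 0-of-5 cells. Its level was 47.4 and 52.0 CPM in responding cells of pools 1 and 2, against 1.29 and 1.13 CPM in 0-of-5 cells. The levels of both states were far apart in both pools, and UMIs came from 34 and 58 responding cells against 3 and 5 of the 0-of-5 cells. The log2 fold change was 5.33 ± 0.24 (SE), with an adjusted p of 0.00211 (edgeR). Bst2, or tetherin, which holds budding virions at the cell surface, had 34.5 and 42.0 CPM in responding cells, against 2.57 and 3.18 CPM in 0-of-5 cells. It rose by 3.70 ± 0.22 on the log2 scale (adjusted p 0.00289, edgeR), and the states again did not overlap.

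Rsad2, or viperin, which makes a chain-terminating nucleotide, had 14.9 and 52.9 CPM in responding cells and 0.643 and 0.454 CPM in 0-of-5 cells. Its log2 fold change was 6.01 ± 0.41 (adjusted p 0.00406, edgeR), but the responding cells of pool 2 were well above those of pool 1. In pool 1, 24 of its 47 UMIs came from 1 cell. Usp18, which removes Isg15 from proteins and dampens receptor signalling, had 21.8 and 29.0 CPM in responding cells, against 0.322 and 0.681 CPM in 0-of-5 cells, a log2 fold change of 5.52 ± 0.38 (adjusted p 0.00406, edgeR). Eif2ak2, the kinase PKR that halts translation on double-stranded RNA, had 33.5 and 34.7 CPM in responding cells and 7.72 and 11.1 CPM in 0-of-5 cells. It rose by 1.82 ± 0.19 (adjusted p 0.0314, edgeR), a smaller change from a higher base than that of the genes before it.

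The list of antiviral effectors held 46 genes, of which 34 were in both pools and 28 had enough counts to be tested. Of those, 16 were higher and 0 lower, 25 were above 0 in both pools, and the median log2 fold change was 2.42, against -0.0033 over all genes tested. The filter on low counts can admit a gene through the cells in which it is high, so such counts describe the genes tested and not the list. Beside the genes above, the higher ones included Ifit3b, Oasl2, Samd9l, Slfn8, Slfn9, Cmpk2, Trim25, Rnf213, Lgals9, Lgals3bp and Ifi27l2a. Ifit3b lies beside Ifit3, and both stretches of its promoter that hold the motif have the same letters as those of Ifit3. How alike the transcripts of the 2 genes are was not examined. Whether reads are split between them is thus not known, and the Ifit3b value is uncertain. Oasl2, of the family of oligoadenylate synthetase-like proteins, had 14.5 and 20.1 CPM in responding cells, against 0 and 1.13 CPM in 0-of-5 cells, and rose by 4.70 ± 0.54 (adjusted p 0.0407, edgeR). Rnf213, a giant ubiquitin ligase, had 49.6 and 78.1 CPM in responding cells, against 9.33 and 11.6 CPM, and rose by 2.60 ± 0.16 (adjusted p 0.00289, edgeR). Ifi44 had 28 and 40 UMIs in responding cells and 0 in 0-of-5 cells of either pool, which makes it at least 22.2-fold higher when the 0-of-5 level is set to 3 counts summed over the pools (adjusted p 0.0461, edgeR).

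**Figure D2:**
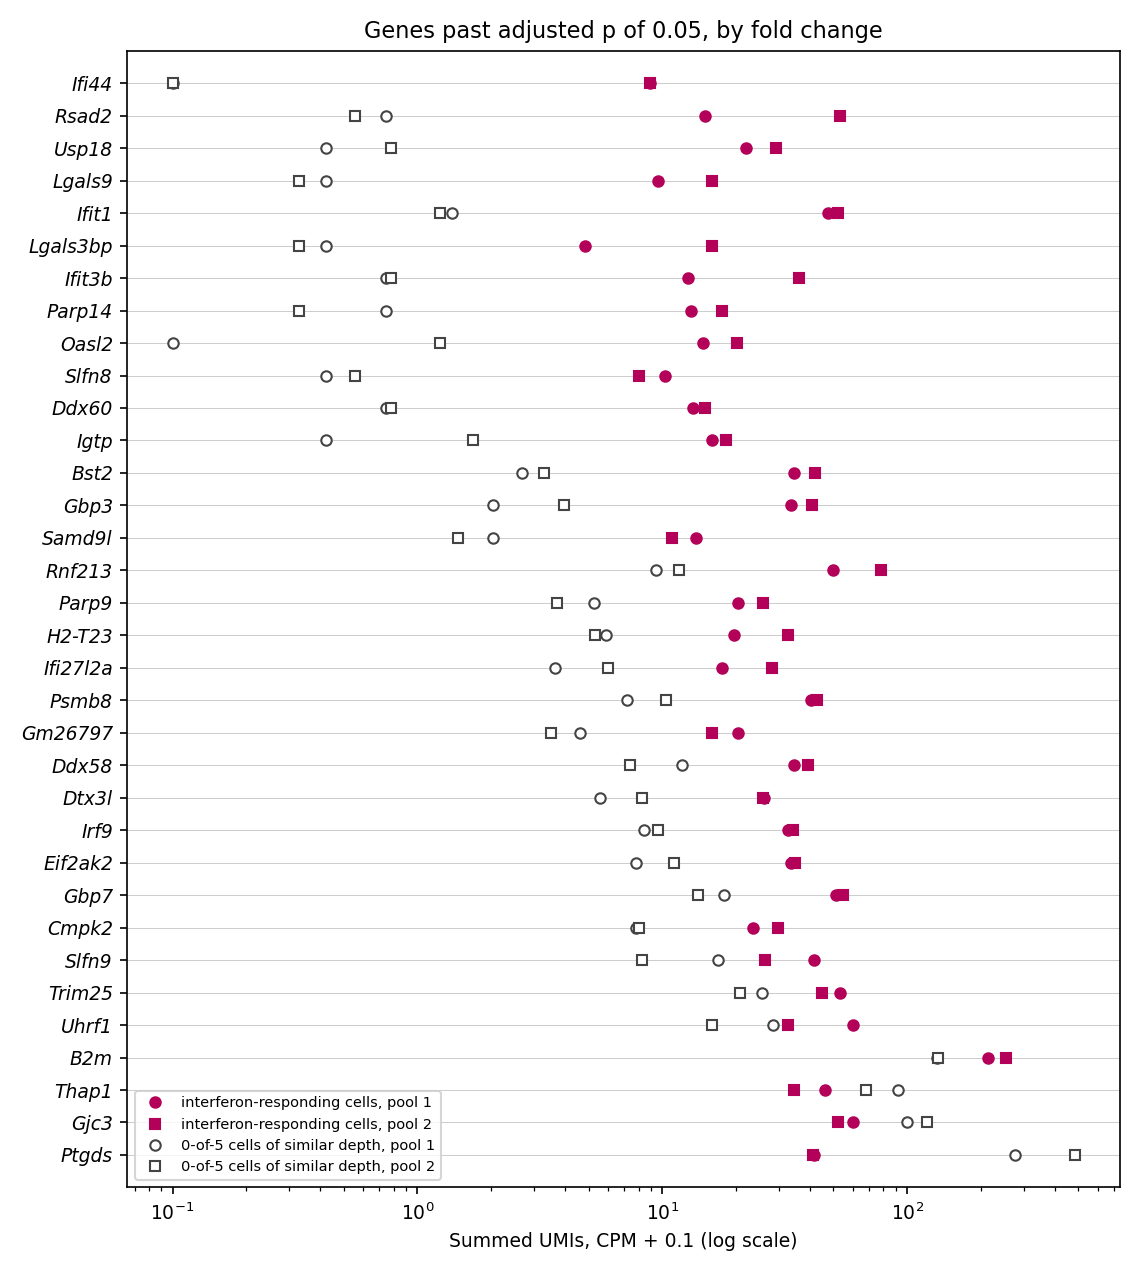
Summed level (CPM + 0.1, log scale) of genes past an adjusted p of 0.05, ordered by fold change, in interferon-responding cells (filled) and in 0-of-5 cells of similar depth (open), with circles for pool 1 and squares for pool 2. The higher genes shown run from Ifi44, at 0 in 0-of-5 cells, to B2m, and the 3 lower genes stand at the bottom.

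Among the factors that carry the interferon signal, Irf9 passed and several others did not. Irf9, the DNA-binding part of ISGF3, had 32.6 and 34.1 CPM in responding cells, against 8.36 and 9.53 CPM in 0-of-5 cells, and rose by 1.87 ± 0.18 (adjusted p 0.0203, edgeR). Its partner Stat2 had 22.8 and 16.8 CPM in responding cells and 5.47 and 9.76 CPM in 0-of-5 cells, which did not pass (log2 fold change 1.30 ± 0.32, adjusted p 0.592, edgeR). The states did not overlap for Stat2, but the difference varied between pools, at 1.99 in pool 1 and 0.78 in pool 2. Irf1, the main factor downstream of interferon gamma, had 10.7 and 11.7 CPM in responding cells and 8.04 and 3.40 CPM in 0-of-5 cells (adjusted p 0.98, edgeR). Stat3, Irf2, Irf3 and Irf8 did not pass either, with log2 fold changes of 0.03, -0.18, -0.21 and -0.30.

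Ddx58, the RNA sensor RIG-I, had 34.5 and 39.2 CPM in responding cells, against 11.9 and 7.26 CPM in 0-of-5 cells, and rose by 1.98 ± 0.25 (adjusted p 0.0461, edgeR). It was the 1 sensor of 5 tested that passed. Ifih1, the sensor MDA5, had 8.22 and 12.2 CPM against 0.965 and 2.50 CPM (log2 fold change 2.50 ± 0.38, adjusted p 0.107, edgeR). Of the genes that conjugate or remove Isg15, 2 of 4 tested were higher, Usp18 and Trim25; the Isg15 ligase Herc6 had 27.8 and 25.7 CPM against 9.97 and 6.81 CPM and fell just short (adjusted p 0.0523, edgeR). Among the ADP-ribosyltransferase and nuclear body genes, 3 of 6 tested were higher. They were Parp9 and its partner ligase Dtx3l, with log2 fold changes of 2.41 and 1.87, and Parp14, with 5.15.

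The receptors and kinases at the head of the pathway showed no such difference. Of 8 tested, 0 were higher and 0 lower, and 0 reached an unadjusted p below 0.05, with a median log2 fold change of -0.07. Ifnar1, a chain of the type I receptor, had 40.1 and 30.8 CPM in responding cells, against 39.2 and 34.7 CPM in 0-of-5 cells, and the states overlapped (log2 fold change -0.09 ± 0.13, adjusted p 0.99, edgeR). Ifnar2, the other chain, had 48.7 and 36.7 CPM against 52.1 and 37.7 CPM (-0.09 ± 0.12). The log2 fold changes of Ifngr1, Ifngr2 and Il10rb, receptor chains for interferon gamma and lambda, were 0.46, -0.06 and 0.04, and those of Jak1, Jak2 and Tyk2 were 0.08, -0.11 and -0.26. A p that misses the threshold does not show that these levels were equal. None of the 14 listed interferon genes was in the table of either pool, so the ligands were not analysed here. How genes were filtered for those tables is not given.

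The interferon-inducible GTPases, which attack the membranes around intracellular pathogens, were higher in 3 of 6 tested genes and lower in 0, with a median log2 fold change of 3.81. The list held 15 genes, of which 9 were in both pools. In 0-of-5 cells 3 of the 9 had 0 UMIs in pool 1 and 4 in pool 2. A gene at 0 there can pass the filter on low counts only through the responding cells. Gbp3 had 33.5 and 40.9 CPM in responding cells, against 1.93 and 3.86 CPM in 0-of-5 cells, and rose by 3.62 ± 0.24 (adjusted p 0.00406, edgeR). Gbp7 rose by 1.76 ± 0.17, with 51.2 and 54.9 CPM against 17.7 and 13.8 CPM (adjusted p 0.0203, edgeR). Igtp, of the immunity-related GTPase family, rose by 3.99 ± 0.45, with 15.8 and 18.1 CPM against 0.322 and 1.59 CPM (adjusted p 0.0364, edgeR). Irgm1, a regulator of that family, had 66.4 and 71.9 CPM against 32.8 and 20.2 CPM and did not pass (adjusted p 0.0858, edgeR).

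MHC class I presentation, the display of peptides from inside the cell to CD8 T cells, was higher in 3 of 17 tested genes and lower in 0, with a median log2 fold change of 0.83. Psmb8, a catalytic subunit of the immunoproteasome, had 40.5 and 42.7 CPM in responding cells, against 7.08 and 10.2 CPM in 0-of-5 cells, and rose by 2.23 ± 0.18 (adjusted p 0.00979, edgeR). B2m, the light chain shared by class I molecules, had 214 and 254 CPM, against 132 and 134 CPM, and rose by 0.80 ± 0.10 (adjusted p 0.0461, edgeR). H2-T23, which encodes the non-classical molecule Qa-1, rose by 2.25 ± 0.28 (adjusted p 0.0461, edgeR). The classical heavy chain H2-D1 had 120 and 130 CPM against 77.8 and 66.7 CPM and did not pass (adjusted p 0.107, edgeR). Of the 17 genes, 16 were above 0 in both pools. None of the 2 class II genes, 3 chemokine and checkpoint genes and 8 NF-kB targets tested passed. Of 5 tested negative regulators of the pathway, 1 was higher, which was Usp18.

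Outside these lists 3 further genes were higher. Ddx60, a helicase known to respond to interferon, rose by 4.33 ± 0.42 (adjusted p 0.0203, edgeR), from 42 and 67 UMIs in responding cells. Gm26797, a gene model named here after its values were seen, rose by 2.17 ± 0.28 (adjusted p 0.048, edgeR), and 24 of its 64 UMIs in pool 1 came from 1 cell. Uhrf1, which maintains DNA methylation at replication, had 60.1 and 32.5 CPM against 28.3 and 15.9 CPM and rose by 1.04 ± 0.13 (adjusted p 0.0461, edgeR). Uhrf1 was the 1 gene of 30 tested on the S phase list to pass; 24 of that list were higher at an unadjusted p below 0.05, against 344 of all 11932 genes, with a median log2 fold change of 0.54. In cells with 3 or more rule genes the S phase median was 0.08 and that of Uhrf1 0.08, close to the median of all genes.

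Each of the 3 lower genes either drew its 0-of-5 counts from few cells or changed the sign of its fitted fold change under another rule. Ptgds, prostaglandin D synthase and a marker of mature oligodendrocytes, had 41.4 and 41.1 CPM in responding cells, against 275 and 483 CPM in 0-of-5 cells (log2 fold change -3.19 ± 0.18, adjusted p 0.00264, edgeR). In 0-of-5 cells, 2 cells held 829 of its 854 UMIs in pool 1 and 2 cells held 1924 of its 2130 UMIs in pool 2. With cells that carry 3 or more of 7 oligodendrocyte genes left out, its log2 fold change was 0.06, and in cells with 3 or more rule genes it was 2.45. Gjc3, a connexin of the oligodendrocyte lineage, fell by 1.002 ± 0.13 (adjusted p 0.0461, edgeR). In cells with 3 or more rule genes its log2 fold change was 0.20 ± 0.35. The pools disagreed there, at 1.53 in pool 1 and -0.50 in pool 2, so pool 2 kept its direction. Thap1, a zinc finger factor, also fell by 1.001 ± 0.11 (adjusted p 0.0357, edgeR), with 46.1 and 34.5 CPM in responding cells, against 91.7 and 67.8 CPM in 0-of-5 cells. Of the 0-of-5 cells, 1 held 117 of the 285 UMIs in pool 1 and 1 held 46 of the 299 in pool 2. The log2 differences were -1.03 in pool 1 and -0.97 in pool 2. With 3 or more rule genes they were -2.02 and -0.34, but with the rule applied to thinned cells the fitted value was 0.85.

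The same comparison in cells with 3 or more rule genes, 41 and 87 cells matched to as many 0-of-5 cells, gave 53 higher genes (0.529% of 10013 tested) and 0 lower (0%), with 211 and 86 at an unadjusted p below 0.05. Of the 53 genes, 44 were on the interferon-related lists, which were chosen with earlier results of these data known. The share of all 10013 tested genes on those lists was not counted. Of the 32 genes above, 30 were called again. Trim25 and Uhrf1 were not. The fold changes were larger. The median of antiviral effectors was 3.84, with 21 of 29 tested genes higher, and that of MHC class I was 1.30, with 7 of 15 higher. All 5 tested GTPases were higher, out of 15 listed and 9 in both pools. In 0-of-5 cells 5 of the 9 had 0 UMIs in each pool. A gene at 0 there can pass the filter only through the responding cells, so this count describes the genes tested and not the list. Ifit1 reached a log2 fold change of 7.98, Bst2 7.50 and B2m 1.30, and H2-D1 and Irgm1 now passed, at 1.16 and 2.34. The receptors and kinases again had 0 of 7 past the threshold. These cells are a subset of the members above, so this is not a separate test.

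Levels of the interferon lists below stood higher the more rule genes a cell carried. Ifit2, itself a rule gene, had 105, 86.4, 93.3 and 103 CPM at 1, 2, 3 and 4 or 5 rule genes in pool 1. It had 93.4, 79.5, 79.5 and 91.2 CPM in pool 2. Most cells with 1 rule gene were placed there by an Ifit2 UMI, so these Ifit2 values are set by the rule. They cannot be compared with the lists. The summed level of the 34 antiviral effectors in cells with 0, 1, 2, 3 and 4 or 5 rule genes was 467, 531, 653, 1005 and 2792 CPM in pool 1 and 449, 476, 645, 1046 and 2089 CPM in pool 2. Just outside the rule, at 1 gene, the list stood near its level in 0-of-5 cells, and just inside it, at 2 genes, it was moderately above. Depth differs between these groups, so the levels are given as a description, without a test. The GTPases had 54.3, 56.5, 101, 189 and 633 CPM in pool 1 and 38.8, 43.6, 77.6, 183 and 425 CPM in pool 2. MHC class I genes had 479, 535, 681, 817 and 1473 CPM in pool 1 and 491, 510, 624, 786 and 1422 CPM in pool 2, a flatter gradient than that of the effectors.

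**Figure D3:**
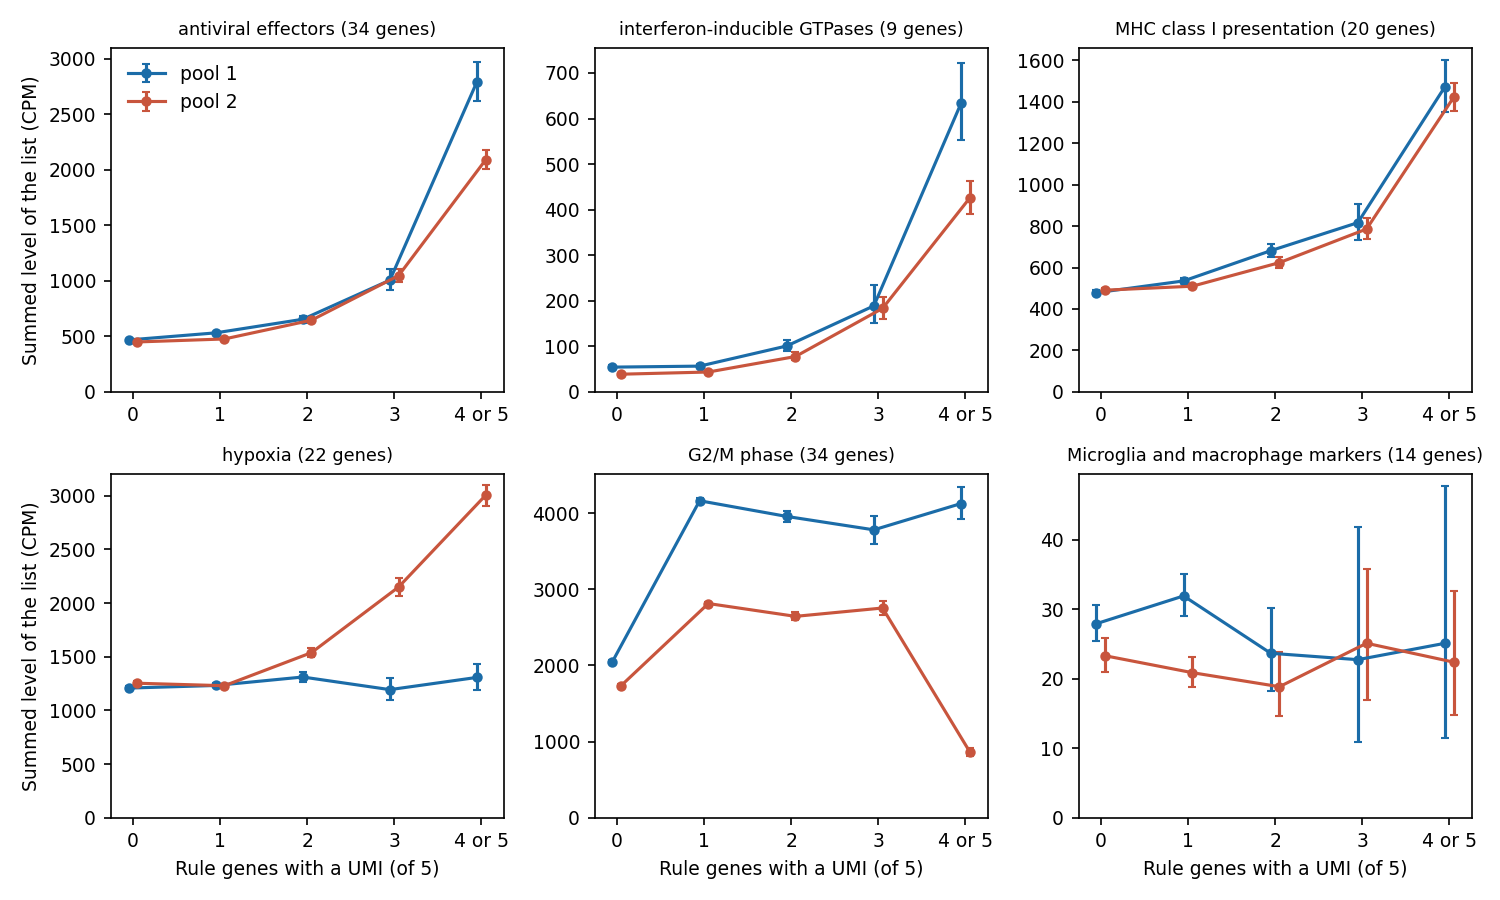
Summed level (CPM) of 6 gene lists by the number of rule genes with a UMI, in pool 1 and pool 2. Bars are exact 95% Poisson intervals, which treat UMIs as independent, and all y axes start at 0. Effectors, GTPases and MHC class I genes stood higher with more rule genes in both pools, hypoxia genes had 1308 CPM in pool 1 and 3006 CPM in pool 2 at 4 or 5 rule genes, and microglial markers stayed between 18.9 and 31.9 CPM.

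Single cells showed a spread within each number. The median cell with 4 or 5 rule genes had 2671 CPM of effectors in pool 1 and 1679 CPM in pool 2, and the cells ranged between 677 and 11663 CPM and between 487 and 11424 CPM. The median cell with 2 rule genes had 585 and 611 CPM, against 409 and 395 CPM for the median cell with 0. The highest 0-of-5 cell had 8206 CPM in pool 1 and 3717 CPM in pool 2, above the median of cells with 4 or 5 rule genes and below their highest cell in both pools. After thinning to 2000 UMIs, 3 or more effector genes were detected in 73.7% (48.8 to 90.9%) and 45.2% (29.8 to 61.3%) of cells with 4 or 5 rule genes. The shares were 8.28% (4.35 to 14.0%) and 9.58% (5.58 to 15.1%) of cells with 2. They were 4.70% (3.78 to 5.76%) and 4.82% (3.79 to 6.03%) of cells with 0, so the intervals for 2 and 0 rule genes overlapped in both pools.

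**Figure D4:**
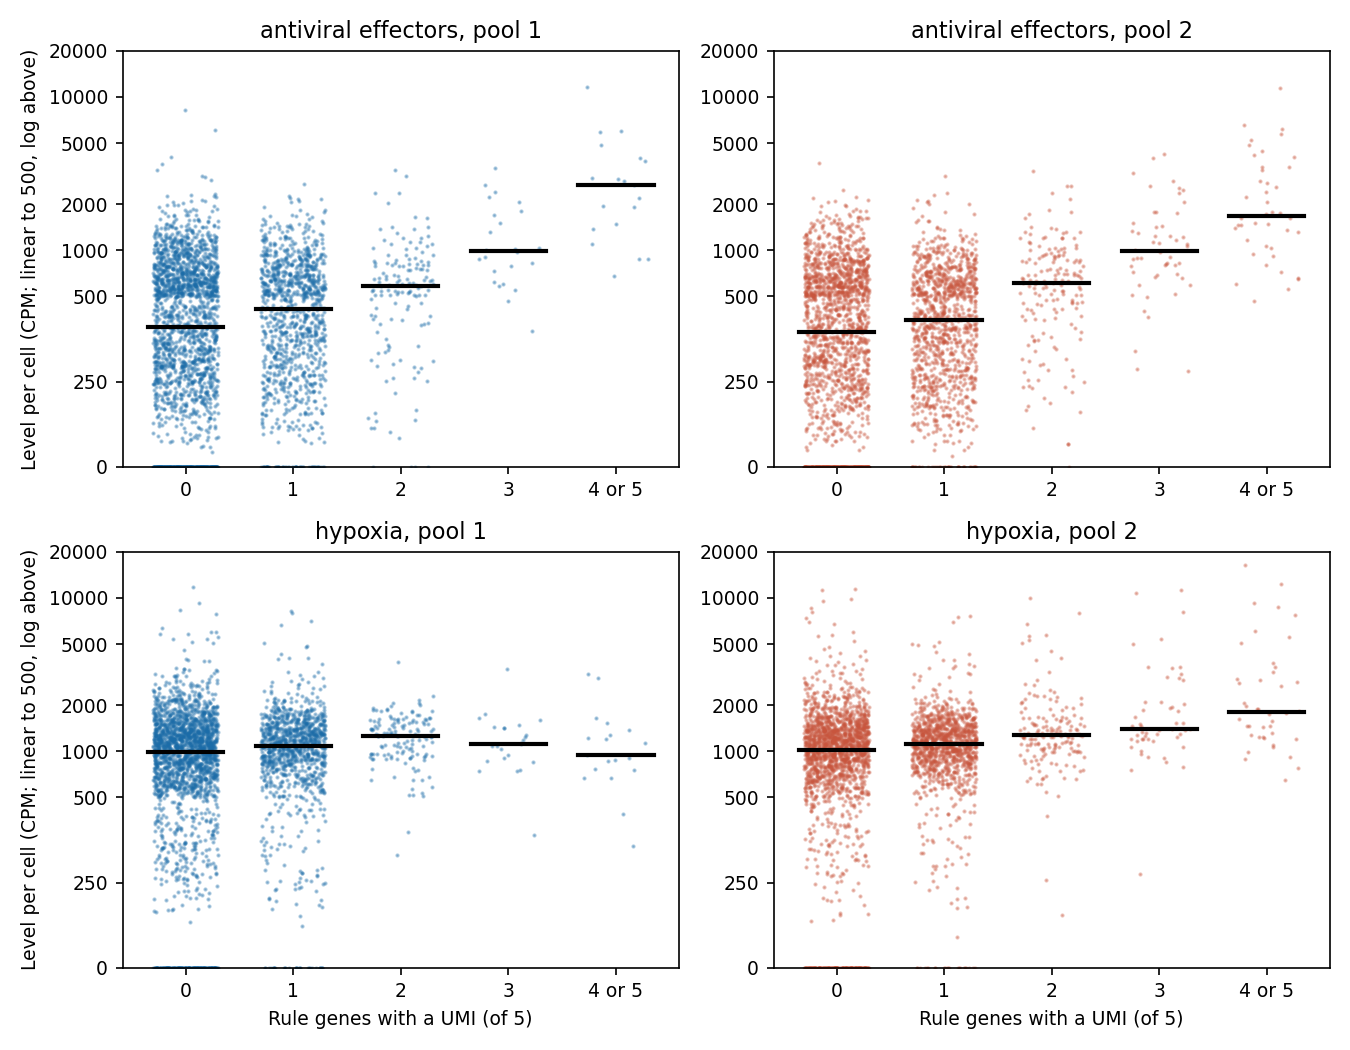
Level per cell (CPM, linear up to 500 and log above) of antiviral effectors (top) and hypoxia genes (bottom) by number of rule genes, for pool 1 (left) and pool 2 (right). Each point is a cell and each bar a median. At 4 or 5 rule genes effector medians reach 2671 and 1679 CPM and hypoxia medians are 941 CPM in pool 1 and 1802 CPM in pool 2.

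Cells with exactly 2 rule genes were divided into those with Ifit2 and Rtp4 and those with any other pair. Those with Ifit2 and Rtp4 had 587 and 553 CPM of effectors, and those with any other pair had 744 and 757 CPM. Bst2 had 1.24 and 0.491 CPM with Ifit2 and Rtp4, close to the 1.35 and 1.37 CPM of all 0-of-5 cells, but 31.5 and 30.5 CPM with other pairs. The exact Poisson intervals were 0.150 to 4.48 and 0.0124 to 2.73 CPM against 22.2 to 43.4 and 22.7 to 40.1 CPM. They treat UMIs as independent and do not measure the spread between cells. Among all matched members, 2 cells held 37 of the 109 Bst2 UMIs in pool 1 and 2 cells held 47 of the 190 in pool 2. Gbp3 likewise had 7.44 and 6.38 CPM with Ifit2 and Rtp4 and 26.4 and 22.1 CPM with other pairs. Irf9 had 20.5 and 18.6 CPM with Ifit2 and Rtp4, 31.5 and 24.5 CPM with other pairs, and 10.6 and 10.0 CPM in 0-of-5 cells. Bst2, Gbp3 and Irf9 were chosen for this contrast after their values were seen, and the difference between pair types was not tested. After thinning to 2000 UMIs, 3 or more effector genes were detected in 4.55% (1.25 to 11.2%) and 8.14% (3.34 to 16.1%) of cells with Ifit2 and Rtp4 and in 14.0% (6.26 to 25.8%) and 11.1% (5.21 to 20.05%) of cells with other pairs, so these intervals overlapped.

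Hypoxia genes, which HIF factors induce at low oxygen, differed between the pools. Of 19 tested, 0 were higher and 0 lower, and 0 were past an unadjusted p of 0.05 either way. In cells with 3 or more rule genes 0 of 17 passed either way, but 8 were higher at an unadjusted p below 0.05, against 211 of all 10013 genes, and the median log2 fold change was 0.69, with -0.22 in pool 1 and 1.29 in pool 2. The list summed to 1312 CPM in responding cells and 1448 CPM in matched 0-of-5 cells of pool 1, but to 2082 and 1400 CPM in pool 2. The median log2 difference was -0.41 in pool 1 and 0.82 in pool 2, and a difference between pools was not tested. By number of rule genes, from 0 to 4 or 5, the list had 1209, 1233, 1312, 1194 and 1308 CPM in pool 1 and 1254, 1231, 1539, 2150 and 3006 CPM in pool 2. The angiogenic factor Vegfa, chosen after its values were seen, had 57.6, 35.5, 30.1, 56.9 and 39.1 CPM in pool 1 and 41.3, 32.7, 54.4, 128 and 180 CPM in pool 2. The glucose transporter gene Slc2a1 had 8.37 and 63.9 CPM at 4 or 5 rule genes, the pool 1 value from 3 UMIs, against 6.98 and 10.2 CPM in 0-of-5 cells. Glycolysis genes, 0 of 14 of which passed, had median log2 differences of -0.21 in pool 1 and 0.54 in pool 2.

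G2/M genes of dividing cells also went apart, with 0 of 34 past the threshold and median log2 differences of 0.55 in pool 1 and -0.21 in pool 2. At 4 or 5 rule genes this list had 4125 and 868 CPM, against 2051 and 1736 CPM in 0-of-5 cells. The median cell had 383 and 202 CPM at 4 or 5 rule genes, against 315 and 199.6 CPM in 0-of-5 cells, and the highest cells had 25354 and 15405 CPM, against 34038 and 34022 CPM. The lists of MAPK output, immediate early genes, p53 targets, the unfolded protein response, cholesterol synthesis and synaptic genes each had 0 genes higher and 0 lower.

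Markers of other states and cell types were measured in the same sums. Markers of oligodendrocyte precursors, the cell type these gliomas resemble, had 0 of 10 genes past the threshold and summed to 9959 and 9277 CPM in responding cells, against 9551 and 8997 CPM in 0-of-5 cells. Markers of microglia and macrophages summed to 24.7 and 19.3 CPM in responding cells, against 30.9 and 17.9 CPM in 0-of-5 cells and 6616 and 23743 CPM in the microglial cells kept out. Of their 14 genes in both pools, 8 and 6 were at 0 in responding cells, and 8 and 7 in 0-of-5 cells. Tyrobp, an adaptor of myeloid receptors and not a gene named by plan, had 0 UMIs in cells with 4 or 5 rule genes of either pool. It had 891 and 2755 CPM in microglial cells. The microglial cells are those removed for UMIs of 2 or more of C1qa, C1qb, C1qc and Csf1r. The gap between them and the kept cells therefore follows in large part from the filter. Of 10 markers of T and NK cells, 1 was in both pools, with 0 and 0.442 CPM in responding cells against 0 and 0.908 CPM. Dendritic cell markers had 2.21 and 1.77 CPM in responding cells, against 0.965 and 4.99 CPM in 0-of-5 cells, and endothelial markers 7.59 and 6.86 CPM, against 3.86 and 6.35 CPM. Markers of astrocytes, with 0 of 5 past the threshold, and of neurons, with 0 of 4, did not pass. Oligodendrocyte markers differed between pools, at 2033 and 653 CPM in responding cells, against 1874 and 2243 CPM in 0-of-5 cells. With the 60 cells that carry 3 or more of 7 oligodendrocyte genes left out, 6 of them members, 62 genes were higher and 8 lower. Apod, on the marker list, gave 405 of the 653 CPM in responding cells of pool 2, and 1822 of its 1831 UMIs came from 1 cell. In cells with 3 or more rule genes the markers summed to 959 and 1508 CPM, against 104 and 837 CPM in their matched 0-of-5 cells, and Ptgds was higher, with an adjusted p of 0.00205 (edgeR). Ptgds UMIs per cell were not counted in that subset. Among all matched members, 2 cells held 108 of its 131 UMIs in pool 1 and 2 cells held 163 of its 186 in pool 2. The part of oligodendrocyte RNA in the other differences of cells with 3 or more rule genes was not tested. Markers of committed oligodendrocyte precursors summed to 900.5 and 717 CPM in responding cells, against 964 and 1117 CPM in 0-of-5 cells. Of their 6 genes 0 passed the threshold, although 5 were lower at an unadjusted p below 0.05, against 217 of all 11932 genes, with a median log2 fold change of -1.10. The medians were -0.32 in pool 1 and -2.09 in pool 2. In cells with 3 or more rule genes they were 1.97 and -2.03, and 0 of the 6 genes were lower at an unadjusted p below 0.05.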

How the data were processed

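The authors deposited 2 tables of raw UMI counts per gene symbol and cell barcode, 1 per pool, made with Cell Ranger 6.0.2 on GRCm38 (mm10), per the submitters' processing notes, and how genes and barcodes were filtered is not given in the sources used here. The 16859 genes in both tables were used, of which 98.6% had a position in GENCODE vM21. The members and gene lists were chosen with earlier results of these data known. Each member was matched to the nearest unused 0-of-5 cell in UMIs, deepest members first, within 10%; members without one stayed out of the test. Counts summed per pool and state (4 sums) were fitted with edgeR 4.0.16 in R 4.3.3 (TMM, filterByExpr, quasi-likelihood F test) after a check on simulated data. The pool is the block because both states come from the same tumours. The 5 rule genes and the 4 microglial filter genes were left out of calls and adjustment. Log2 values per pool use a prior count of 0.5. DESeq2 1.42.0, other filters, other matching and stricter rules were tried as alternatives. No doublet caller was run; the deepest 5% of cells were left out in an alternative. Python 3.11.15 was used for the rest. Named genes were the 10 largest each way past the threshold with the same sign in both pools and at least 20 CPM on average, the up to 4 members of smallest p per list, and all listed receptors, kinases, STAT and IRF factors; the other genes past the threshold were named after their values were seen. A gene past the threshold is counted in the totals but is not reported here.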

Additional observations from a re-analysis of the deposited data

Results flagged for a closer look

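Cxcl10 and Tgtp2, both on the lists, stood outside the comparison because they are in the table of pool 2 alone. Cxcl10, a chemokine that attracts T cells, had 10 UMIs in the 262 responding cells of pool 2, from 2 cells of which 1 held 8, and 0 UMIs in its 1858 0-of-5 cells. Tgtp2, an interferon-inducible GTPase, had 5 UMIs from 3 responding cells, of which 1 held 3, and 0 UMIs in 0-of-5 cells. Both were picked out because their UMIs exceed the 3 counts that a count of 0 allows, a limit that treats UMIs as independent, whereas these came from few cells. The responding cells are deeper than the full set of 0-of-5 cells used here, and the part of depth was not tested.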

How the results depend on the processing

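With 2 pools, leaving out either leaves 1 sum against 1 and no test, so the values per pool stand in its place. Of genes higher and lower, 32 and 3 as reported, library totals without TMM gave 73 and 15, the fit without the replicate block 5 and 1, 3 controls per member 57 higher, all 0-of-5 cells regardless of depth 311 and 107, cells with 3 or more rule genes 53 and 0, the deepest 5% left out 53 and 46, and oligodendrocyte-like cells left out, an alternative chosen after seeing the data, 62 and 8. DESeq2 gave 26 higher and 1 lower. The other alternatives gave between 35 and 48 higher genes. Antiviral effectors higher were 2 without the replicate block. The share of responding cells was 2.06% with 3 or more rule genes and 1.08% after thinning to 2000 UMIs. Log2 fold changes changed sign with 3 or more rule genes for Gjc3 (0.20), Ifnar2 (0.22), Irf3 (0.20), Irf8 (0.17), Jak2 (0.24) and Ptgds (2.45). They did so with the rule applied to thinned cells for Gjc3 (0.017), Ifnar2 (0.71), Ifngr1 (-0.35), Ifngr2 (0.49), Irf3 (0.41), Irf8 (0.21), Jak1 (-0.40), Jak2 (0.12), Thap1 (0.85) and Uhrf1 (-1.43). With all 0-of-5 cells they did so for Ifnar2 (0.11), Ifngr2 (0.15), Il10rb (-0.074) and Irf8 (0.13), with 3 controls per member for Ifnar1 (0.036) and Tyk2 (0.017), and without oligodendrocyte-like cells for Ptgds (0.057). The cause was not tested. Depth limits genes of few UMIs and the detection of rule genes in shallow cells.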
